A study of Homo sapiens with 4 samples.

Results

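The HSP90 family mRNAs were followed in RNA immunoprecipitation sequencing (RIP-seq) of FLAG-tagged ORC1, a subunit of the complex that marks replication origins. The members were taken by gene name, with earlier results of these data known, and are the 4 genes HSP90AA1, HSP90AB1, HSP90B1 and TRAP1 among 63677 genes in the deposited table, of which 14645 had enough counts to be tested. Both groups came from HCT116 cells, an established human colorectal carcinoma line, grown in RPMI medium and transfected for 48 h with pcDNA3 carrying ORC1 fused to 3xFLAG, so that every library carried the overexpressed protein. The ORC1-FLAG IP group (2 libraries, replicates 1 and 2) is RNA recovered with an anti-FLAG antibody from nuclear lysates without crosslinking, and the Input group (2 libraries, replicates 1 and 2) is RNA of the nuclear lysate before precipitation. No library with a control antibody and none from untransfected cells was analysed here, so the share of each level that comes from adhesion to the beads or the antibody is unknown. The study reports that control IgG gave no detectable RNA in its RIP with an anti-ORC1 antibody. It also reports negligible RNA from untransfected cells in anti-FLAG iCLIP, a method that crosslinks RNA to protein with UV light. The methods call the replicates duplicate experiments, but neither they nor the labels name separate cultures, so p-values measure only the spread between these libraries, part of which may be technical.

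HSP90 proteins are ATP-dependent chaperones that act late in folding. They work as dimers that close over a bound client protein, and cochaperones load the client, set the pace of the ATPase or add enzymes to the complex. Vertebrate cells hold a stress-inducible cytosolic form (HSP90AA1, HSP90 alpha), a more constitutive cytosolic form (HSP90AB1, HSP90 beta), a form of the endoplasmic reticulum lumen (HSP90B1, also called GRP94) and a form of the mitochondrial matrix (TRAP1). All are encoded in the nuclear genome. The lysates were made from isolated nuclei, and how much cytoplasmic RNA they held was not tested. Cytosolic HSP90 is abundant in carcinoma cells, where many kinases and steroid receptors are its clients.

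The coding sequences differed in their last bases and in their content of GAA, a triplet the study examined as a tandem repeat in RNAs recovered with ORC1. The last 18 coding bases of the canonical transcript of each member are shown because their ends mark the compartments: the cytosolic members end in the codons of the signal bound by cochaperones, and HSP90B1 in those of the retention signal of the endoplasmic reticulum. The stop codon is in capitals. The stretches lie at chr14:102081712-102081729 (minus strand, exon 11), chr6:44253581-44253598 (plus strand, exon 12), chr12:103947645-103947662 (plus strand, exon 18) and chr16:3658129-3658146 (minus strand, exon 18) of GRCh38.
HSP90AA1: atggaagaagtagacTAA
HSP90AB1: atggaagaagtcgatTAG
HSP90B1: gaaaaagatgaattgTAA
TRAP1: gccctggagcgacacTGA

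The coding window of 60 bases with the most GAA is shown for each member because the members differed in how densely it holds this triplet. Capitals mark each GAA. The windows lie within exon 5 of HSP90AA1 (chr14:102084903-102084962, minus strand), exon 6 of HSP90AB1 (chr6:44250336-44250395, plus strand), exon 7 of HSP90B1 (chr12:103938384-103938443, plus strand) and exon 7 of TRAP1 (chr16:3676077-3676136, minus strand), all GRCh38 with GENCODE v44 exons. GAA occurred 10 times in the window of HSP90AA1, 8 times in that of HSP90AB1, 11 times in that of HSP90B1 and 4 times in that of TRAP1.
HSP90AA1: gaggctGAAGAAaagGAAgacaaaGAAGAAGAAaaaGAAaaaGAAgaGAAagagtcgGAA
HSP90AB1: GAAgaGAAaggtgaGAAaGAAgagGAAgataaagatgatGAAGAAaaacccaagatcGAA
HSP90B1: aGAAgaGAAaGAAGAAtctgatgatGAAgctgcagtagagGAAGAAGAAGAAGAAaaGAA
TRAP1: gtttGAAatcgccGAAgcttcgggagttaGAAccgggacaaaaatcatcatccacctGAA

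The libraries held between 9213877 (Input replicate 2) and 27483148 counts (IP replicate 1). The 4 members held 3.78% and 3.31% of the counts of the IP libraries and 1.46% and 0.979% of those of the Input libraries. Levels below are counts per 1e+06 counts of the library (CPM), scaled with TMM factors, which align the bulk of genes between libraries. They are shares of a library, so more RNA of a member and less RNA of other genes cannot be told apart. ORC1, the gene carried by the plasmid, had 1108 CPM in IP replicate 1 and 18551 CPM in IP replicate 2, and 333 and 5063 CPM in the Inputs. The study describes the plasmid insert as codon-optimized, and the cells also express endogenous ORC1. How far these counts measure the transfected RNA is therefore unknown. Of 12 colon epithelial markers, 7 were tested, among them EPCAM, KRT8, KRT18, KRT19 and CDH1, whereas CDX1 and TFF3 had no count and VIL1, CEACAM5 and LGR5 were below 1 CPM in every library. The summed level of 12 markers of other cell types was 24.8 and 32.2 CPM in the IP and 9.97 and 14.5 CPM in the Input libraries, 4 of them had no count, and most of the sum was COL1A1, which was itself enriched. Their part in the results was not tested.

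The first question is whether HSP90 mRNAs of the nucleus come down with ORC1-FLAG beyond their level in the lysate. The mRNAs of both cytosolic members and of the endoplasmic reticulum member were enriched in the IP, by 3.75-fold to 5.36-fold, and that of the mitochondrial member was not called. A gene was called enriched or depleted in edgeR's quasi-likelihood test at a Benjamini-Hochberg adjusted p below 0.05 over all 14645 genes with a log2 fold change above 1 or below -1. By this rule 3 of the 4 members were enriched, where 10.5% of all genes tested were enriched, and 0 of 4 were depleted, where 8.30% were depleted. DESeq2 and limma voom also gave 0 depleted members, and 0 were lower in the IP at an unadjusted edgeR p under 0.05. With the replicate number as a block the members' calls were the same, against 13.4% of all genes enriched and 13.4% depleted.

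HSP90AA1 (ENSG00000080824, chr14:102080742-102139699, minus strand, GRCh38) encodes the stress-inducible cytosolic chaperone. It had 22381 CPM in IP replicate 1 and 17558 CPM in IP replicate 2, against 5201 CPM in Input replicate 1 and 2246 CPM in Input replicate 2. Both IP libraries were above both Inputs, and the Inputs were farther apart than the IPs. Among all genes of a library it ranked 1 and 2 by CPM in the IPs and 4 and 18 in the Inputs. The ratio of IP to Input on the log2 scale reached 2.11 in replicate 1 and 2.97 in replicate 2. Fitted over both replicates in edgeR, it was 2.42 ± 0.48 (SE, 2 libraries in each group, adjusted p = 0.0179), a 5.36-fold difference, and 0.225% of the genes tested had one as high. It was called in each of the 4 fits that left out a library, at 1.79 without Input replicate 2 and 3.19 without Input replicate 1.

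HSP90AB1 (ENSG00000096384, chr6:44246166-44253888, plus strand) encodes the constitutive cytosolic chaperone. Its level was 22140 CPM in the first IP library and 16118 CPM in the second, against 5624 and 4571 CPM in the Inputs of the same replicates. The groups did not overlap, and the Inputs lay within 1.23-fold of each other. The log2 ratios were 1.98 and 1.82, the closest pair of replicate ratios in the family. The change fitted in edgeR was 1.91 ± 0.36 on the log2 scale (SE, 2 libraries in each group, adjusted p = 0.0158), or 3.75-fold, and 1.45% of the genes tested had one as high.

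HSP90B1 (ENSG00000166598, chr12:103930107-103953931, plus strand) encodes the chaperone of the endoplasmic reticulum lumen, which folds integrins and Toll-like receptors. It had 5067 CPM in the IP and 1308 CPM in the Input of replicate 1, and 4352 CPM in the IP and 765 CPM in the Input of replicate 2. Both IP libraries were again above both Inputs. The log2 ratios were 1.95 and 2.51, and edgeR gave 2.18 ± 0.37 (SE, 2 libraries in each group, adjusted p = 0.0132), or 4.54-fold. A fold change as high was found in 0.594% of the genes tested.

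TRAP1 (ENSG00000126602, chr16:3651639-3717553, minus strand) encodes the mitochondrial chaperone. It had 279 CPM in the IP and 139 CPM in the Input of replicate 1, and 208 CPM in the IP and 135 CPM in the Input of replicate 2, so the groups did not overlap here either. The log2 ratios were 1.00 and 0.62. In edgeR the fitted change was 0.83 ± 0.26 (SE, 2 libraries in each group, adjusted p = 0.0564), or 1.78-fold, short of both thresholds. Of the genes tested, 18.1% had a log2 fold change as high. With the replicate number as a block the adjusted p fell to 0.000873 in edgeR with a log2 fold change of 0.81, still below the fold change minimum. Without IP replicate 2 TRAP1 was called, at 1.08 (edgeR adjusted p = 0.0459).

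**Figure D1:**
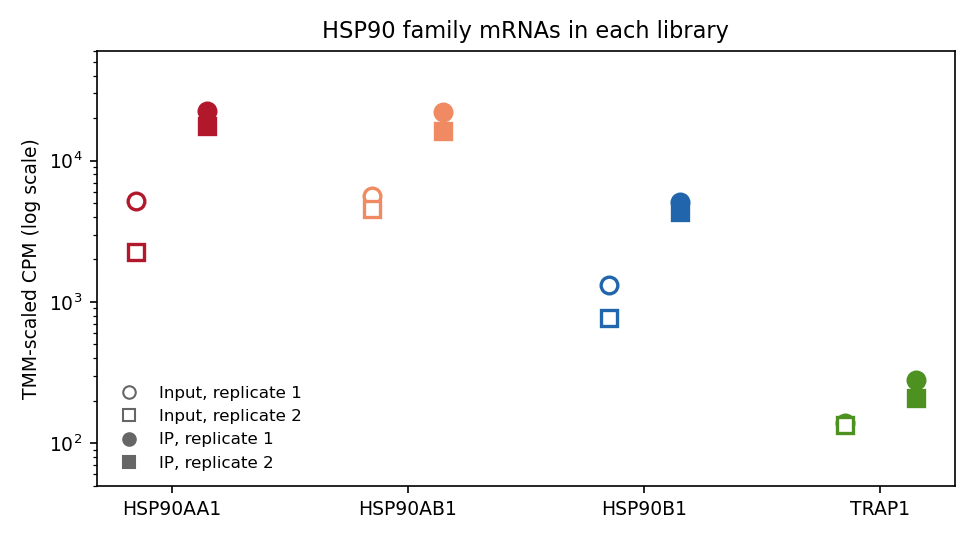
TMM-scaled CPM on a log axis for the 4 members, with open symbols for Input, filled symbols for ORC1-FLAG IP, circles for replicate 1 and squares for replicate 2. For each member both IP points lie above both Input points, and the Inputs of HSP90AA1 (5201 and 2246 CPM) are the farthest apart.

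In each replicate alone the 3 enriched members were near the top of the distribution. In replicate 1, 0.43% of the genes tested had a ratio as high as HSP90AA1, 0.799% as high as HSP90AB1 and 0.929% as high as HSP90B1. In replicate 2 these shares were 0.109%, 2.23% and 0.423%. The ratio of TRAP1 was reached by 13.4% of genes in replicate 1 and 22.4% in replicate 2, and the 90th percentile of all ratios was 1.16 and 1.09.

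**Figure D2:**
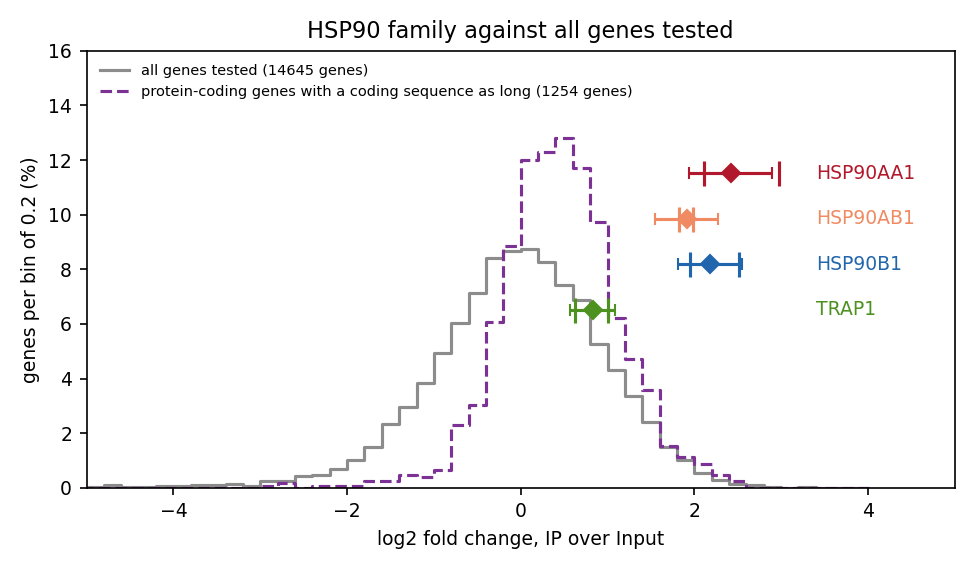
Distribution of the edgeR log2 fold change of IP over Input over all 14645 genes tested (solid grey line) and over the 1254 protein-coding genes with a coding sequence of 2067 to 2595 bases, where all 4 members fall (dashed line). Diamonds give each member's log2 fold change with its SE as capped bars, and the tall ticks its log2 ratio in each replicate. TRAP1 (0.83) lies within the body of both distributions and the other members (1.91 to 2.42) in their right tails.

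Within a library the ratio of one member to another does not depend on the scaling, so it compares the members directly. In Input replicates 1 and 2, HSP90AA1 had 37.4 and 16.7 times the counts of TRAP1, and in IP replicates 1 and 2 it had 80.2 and 84.5 times. HSP90AB1 had 40.4 and 33.9 times the counts of TRAP1 in the Inputs and 79.3 and 77.6 times in the IPs. HSP90B1 had 9.4 and 5.67 times in the Inputs and 18.2 and 21.0 times in the IPs. All 3 ratios to TRAP1 were higher in both IP libraries than in both Inputs. The log2 ratio rose from Input to IP by a mean of 1.72 ± 0.88 for HSP90AA1, 1.08 ± 0.16 for HSP90AB1 and 1.42 ± 0.66 for HSP90B1 (SD, n = 2 replicates).

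Between the members of the cytosol and of the endoplasmic reticulum, 1 of the 2 ratios separated. The counts of HSP90AB1 relative to HSP90B1 were 4.3 and 5.98 in the Inputs of replicates 1 and 2 and 4.37 and 3.7 in the IPs, which overlap. Their log2 ratios of IP to Input differed by 0.02 in replicate 1 and by -0.69 in replicate 2. HSP90AA1 had 3.98 and 2.94 times the counts of HSP90B1 in the Inputs and 4.42 and 4.03 times in the IPs, which do not overlap, a change of 0.15 and 0.46 on the log2 scale. The corresponding change was 0.13 and 1.15 for HSP90AA1 relative to HSP90AB1. The value of 1.15 comes from replicate 2, with the low Input level of HSP90AA1, where the ratio of counts to HSP90AB1 was 0.491, against 0.925 in Input replicate 1, 1.01 in IP replicate 1 and 1.09 in IP replicate 2. The mean log2 ratio of the cytosolic members exceeded that of HSP90B1 by 0.09 in replicate 1 and fell below it in replicate 2 (difference -0.12), and it exceeded that of TRAP1 by 1.04 and 1.77. In the order of fold changes, HSP90AA1 exceeded its neighbour HSP90B1 by a mean log2 difference of 0.30 ± 0.22, HSP90AB1 differed from HSP90B1 by -0.33 ± 0.50, which is within the spread between replicates, and the step of 1.08 ± 0.16 from TRAP1 up to HSP90AB1 was larger than that spread (SD, n = 2 replicates). Over the 6 pairs of members the exact two-sided permutation test gave p = 0.333 for 5 pairs and p = 0.667 for HSP90AB1 with HSP90B1 (0.4 and 0.667 after Benjamini-Hochberg adjustment). With 2 libraries against 2, the smallest p it allows is 0.333, so it cannot call any of these differences.

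**Figure D3:**
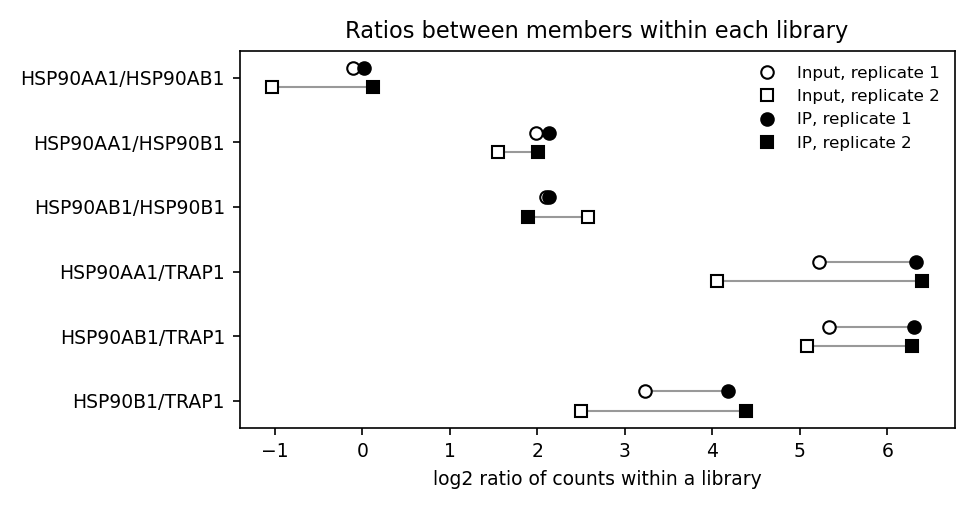
The log2 ratio of the counts of 2 members within each library, with open symbols for Input, filled symbols for IP, circles for replicate 1, squares for replicate 2 and a line joining the libraries of a replicate. The 3 ratios to TRAP1 move to the right from Input to IP in both replicates, by 0.95 to 2.34, whereas HSP90AB1 relative to HSP90B1 moves by 0.02 and -0.69.

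Per kilobase of exonic length the order of the levels was the same in all 4 libraries. HSP90AB1 was highest, with 7429 and 5409 CPM per kilobase in the IPs of replicates 1 and 2 and 1887 and 1534 in their Inputs. HSP90AA1 followed with 4391 and 3445 in the IPs and 1020 and 441 in the Inputs, and the ranges of these neighbours did not overlap within a group. HSP90B1 had 387 and 332 in the IPs and 99.9 and 58.4 in the Inputs, and TRAP1 had 53.9 and 40.1 in the IPs and 26.8 and 26.0 in the Inputs. The union of annotated exons is long for HSP90B1 (13092 bases over 35 transcripts) relative to its canonical transcript (2782 bases). On canonical transcript length, the order stayed the same in each library, but HSP90B1 rose to 1821 and 1564 CPM per kilobase in the IPs, and HSP90AA1 (6933 and 5439) and HSP90AB1 (8665 and 6308) overlapped there.

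The 2 Inputs differed in HSP90AA1 by 2.32-fold, and 5.65% of the genes tested were as far apart between the Inputs. For HSP90B1 the Inputs differed by 1.71-fold, as 16.3% of genes did, and for TRAP1 by 1.03-fold. In the IPs, replicate 1 exceeded replicate 2 by between 1.16-fold (HSP90B1) and 1.37-fold (HSP90AB1). Other chaperone genes also stood higher in replicate 1. Of 14 genes of the heat shock response (heat shock factors and their common targets), 13 were higher in Input replicate 1 than in Input replicate 2, with a median log2 difference of 0.80, where 49.3% of all genes tested were higher and the median was -0.01. In the other lists described below, 22 of 24 cochaperones (median 0.44), 14 of 18 endoplasmic reticulum genes (0.34) and 15 of 18 mitochondrial genes (0.34) were higher too. HSPH1, DNAJA1 and HSPA1B, which encode chaperones of the HSP70 system, were at least 2-fold higher in Input replicate 1. The level counted at ORC1 moved the other way between the replicates, and the part of either difference in the results was not tested.

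Reads of the members can match near copies elsewhere in the genome. Of the 50-base windows of the canonical transcript, 19.1% of those of HSP90AA1, 19.7% of those of HSP90AB1, 8.34% of those of HSP90B1 and 0 of 2174 of those of TRAP1 occur unchanged in the canonical transcript of another annotated gene. For the first pair these other genes were all pseudogenes of the member itself, and for HSP90B1 they were 2 pseudogenes and the microRNA gene MIR3652, which lies in the same locus. No such window was shared between the 4 members. Over the coding sequences, 76.0% of aligned bases were identical between HSP90AA1 and HSP90AB1, 63.9% between HSP90AA1 and HSP90B1 and 62.3% between HSP90AA1 and TRAP1.

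The table held 12 HSP90 pseudogenes with 1339 counts in all, which is 0.0669% of the counts of their 3 parent genes. Of the 5 that were tested, 2 were enriched in edgeR, where 10.5% of all genes were. HSP90AB3P had 348 and 213 counts in the IPs of replicates 1 and 2 and 90 and 29 in their Inputs, and edgeR gave a log2 difference of 1.89 ± 0.39 (SE, adjusted p = 0.0193), next to 1.91 for HSP90AB1. HSP90AA2P had 194 and 130 counts in the IPs and 30 and 8 in the Inputs, and 2.75 ± 0.47 (SE, edgeR adjusted p = 0.0132), next to 2.42 for HSP90AA1. They are the copies with the most 50-base windows in common with their parents. HSP90AB2P (0.87), HSP90AA6P (1.08) and HSP90B2P (1.11) had 52 to 85 counts in all and edgeR adjusted p values of 0.27 to 0.448. HSP90AA3P, HSP90AA4P and HSP90AB7P had 22 to 30 counts and were not tested. How reads with several alignments were counted is not stated, so reads of a pseudogene and of its parent cannot be told apart. Adding the counts of the copies to their parents left the log2 fold changes at 2.42, 1.91 and 2.18. With so few counts in the copies, the sum could hardly move them. It also does not bring back reads that the counting may have dropped, so the effect of shared reads was not tested.

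Genes on the opposite strand cover part of some members. WDR20 shares 197 exonic bases with HSP90AA1 (3.87% of its exons) and held 1435 counts in all libraries together. UQCC6 shares 6.15% of the exonic bases of HSP90B1 with 328 counts. DNASE1 covers 28.5% of the exonic bases of TRAP1 with 717 counts. The library kit marks strand, but the strand setting of the counting is not stated, so reads of these partners cannot be told apart from those of the members. These totals compare with 5812 counts of TRAP1 in IP replicate 1 alone.

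The members shared a coding length and a level. All 4 coding sequences lie between 2115 bases (TRAP1) and 2412 bases (HSP90B1), in the same decile of the protein-coding genes tested (2067 to 2595 bases, 1254 genes), and all were in the top decile by Input level. In that decile of coding length the median log2 fold change was 0.45 (quartiles 0.04 and 0.89), 187 genes (14.9%) were enriched and 8 depleted. Of the 163 genes in both deciles, 0 were depleted in edgeR, DESeq2 and limma voom (7 were lower at an unadjusted edgeR p under 0.05). In edgeR 59 of them (36.2%) were enriched, with a median of 0.77 and an upper quartile of 1.22. TRAP1 at 0.83 lay close to that median, and the other members lay above the upper quartile. Input level is itself the denominator of the ratio, so these shares are a description only.

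Tandem GAA was counted in the canonical transcript of each member and was least frequent in TRAP1. GAAGAA, counted with overlaps on the sense strand of the canonical transcript, occurred 20 times in HSP90B1, 16 times in HSP90AA1, 9 times in HSP90AB1 and 3 times in TRAP1, always in the coding sequence. The longer GAAGAAGAA occurred 7, 5, 2 and 1 times. Of 14265 genes tested with a transcript sequence, 79.6% held GAAGAA and 13.8% GAAGAAGAA, and 0.876%, 1.89%, 8.69% and 45.3% held GAAGAA at least as often as HSP90B1, HSP90AA1, HSP90AB1 and TRAP1. The reverse complement TTCTTC occurred once in HSP90AB1 and once in TRAP1 and was absent from HSP90AA1 and HSP90B1, where 67.6% of transcripts held it, and TTCTTCTTC was in none of the 4, where 4.69% held it. In HSP90AA1, 11 of the 16 GAAGAA lay between bases 661 and 895 of the transcript, and in HSP90AB1 5 of 9 lay between bases 701 and 938, the stretch from which the windows above were taken. HSP90B1 had 9 of 20 between bases 863 and 1162 and others near the end of its coding sequence. Among genes tested, 20 of the 39 with at least 5 GAAGAAGAA were enriched (51.3%, median log2 fold change 1.36), against 938 of the 12303 with none (7.62%, median -0.07). Of the 511 with at least 2, as in HSP90AB1, 46.0% were enriched (median 1.05), and of the 1962 with at least 1, as in TRAP1, 29.7% (median 0.63). HSP90AA1 and HSP90B1 are among the 39 and all 4 members among the 1962, so these counts are no independent evidence for them. The classes were not matched for transcript length, level or GC content. TRAP1 also had the highest GC content of the members, 57.5% of its canonical transcript. It was 41.6% in HSP90AA1, 47.2% in HSP90AB1 and 41.8% in HSP90B1. HSP90B1 had more repeats than HSP90AA1, and their log2 fold changes were 2.18 ± 0.37 and 2.42 ± 0.48 (SE), which overlap. Any part of the repeats in the enrichment was not tested. A motif match is a description and not a binding site. From the positions of iCLIP peaks and from in vitro binding of CEP95 RNA fragments, the study concludes that ORC1 does not bind through these repeats.

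**Figure D4:**
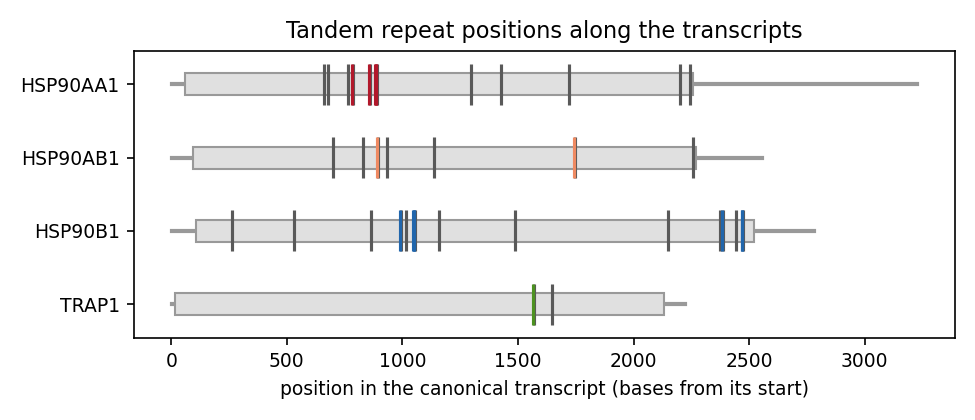
Positions of GAAGAA along the canonical transcript of each member, in bases from its start, with the coding sequence as a box and the untranslated ends as a line. Coloured ticks mark positions where the repeat runs on to GAAGAAGAA. The repeats of HSP90AA1 and HSP90AB1 gather in the first part of the coding sequence, those of HSP90B1 also lie near its end, and TRAP1 has 3.

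The study counts HSP90AA1 among its high-confidence ORC1 RNAs, which both RIP and iCLIP recovered. It also reports fewer nascent strands at local origins after siRNA depletion of this mRNA. Primer pairs for RT-qPCR were designed in the study for HSP90AA1 and HSP90B1. They match the coding sequence of the canonical transcripts exactly, and no other gene's canonical transcript holds both primers of a pair. The pair of HSP90AA1 spans 93 bases from exon 5 (chr14:102084711-102084735) to exon 6 (chr14:102084527-102084546), and that of HSP90B1 spans 194 bases from exon 14 (chr12:103943835-103943854) to exon 16 (chr12:103946841-103946860). They are shown because they mark the part of each mRNA that such an assay reads.
HSP90AA1 forward: cggagaattctataagagcttgacc
HSP90AA1 reverse: agggctctgaattccaactg
HSP90B1 forward: aagcacaagcgtaccaaacg
HSP90B1 reverse: ataccctgaccgaagcgttg

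Some cochaperones of cytosolic HSP90 were enriched along with it. The list held 24 genes taken as cochaperones, a role that was not checked gene by gene, and all were tested. Of these, 7 were enriched and 0 depleted in edgeR, where the background was 10.5% enriched. Among the 1465 genes in the top decile by Input level, 27.4% were enriched, and no list here or below was matched for level. The median log2 fold change of the list was 0.51 against 0.01 over all genes tested. STIP1 (HOP), which bridges HSP70 and HSP90, had the largest, with 3591 and 2149 CPM in the IPs of replicates 1 and 2, 623 and 439 CPM in their Inputs and a fitted log2 difference of 2.43 ± 0.38 (SE, edgeR adjusted p = 0.0117). RPAP3, a scaffold of the R2TP complex, was at 1.80 ± 0.44 and UNC45A, the myosin chaperone, at 1.52 ± 0.26 (SE, edgeR adjusted p = 0.0297 and 0.0132). CDC37, which brings kinases to HSP90, was enriched at 1.48 ± 0.36 (SE, edgeR adjusted p = 0.0293). PTGES3 (p23), which stabilises the closed dimer, was at -0.69 ± 0.31, and AHSA1, which stimulates the ATPase, at 0.37 ± 0.42 (SE, edgeR adjusted p = 0.153 and 0.558), so neither was called. Without Input replicate 1 or without IP replicate 2 the count of enriched cochaperones was 11, and without IP replicate 1 it was 3. With no count filter 1 was depleted, and without Input replicate 2 there were 2, while 0 were depleted in DESeq2 and in limma voom, and 1 (PIH1D1, named because it is the single case) was lower at an unadjusted edgeR p under 0.05.

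The folding machinery of the endoplasmic reticulum around HSP90B1 had 5 enriched and 1 depleted of 18 mRNAs, all tested, where 10.5% of all genes were enriched and 8.30% depleted, with a median log2 fold change of 0.65. HSPA5 (BiP), the HSP70 of this compartment, had 3025 and 3616 CPM in the IPs of replicates 1 and 2 and 934 and 1136 CPM in their Inputs, at 1.68 ± 0.30 (SE, edgeR adjusted p = 0.0141). The disulfide isomerases PDIA3 (1.37) and PDIA4 (1.11) were enriched as well. DNAJB9, a J-domain cochaperone of HSPA5, was depleted at -1.27 ± 0.31 (SE, edgeR adjusted p = 0.0293), and with RLE size factors, without IP replicate 1 or without Input replicate 2 only 2 of the 18 were enriched. Without Input replicate 1, 0 were depleted and without Input replicate 2 there were 2.

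Of 18 mRNAs of mitochondrial chaperones and proteases around TRAP1, all tested, 3 were enriched and 1 depleted, near the background of 10.5% and 8.30%, and the median was 0.65. With library size as the only scaling, 0 were enriched and 3 depleted in edgeR. HSPA9, the mitochondrial HSP70, was at 1.55 ± 0.31, HSPD1, the large chaperonin subunit, at 1.33 ± 0.33, and the protease LONP1 at 1.02 ± 0.24 (SE, edgeR adjusted p = 0.0179, 0.0297 and 0.0259). HSPE1, the small partner of HSPD1, was depleted, with 9.65 and 8.08 CPM in the IPs of replicates 1 and 2 and 104 and 50.9 CPM in their Inputs, at -3.13 ± 0.38 (SE, edgeR adjusted p = 0.0105). Leaving out Input replicate 1 gave 6 enriched mRNAs and leaving out IP replicate 2 gave 8, whereas 1 was left on leaving out IP replicate 1 or Input replicate 2, and in the last case 2 were depleted.

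Of 14 mRNAs of the heat shock response, 3 were enriched and 0 depleted in edgeR, where 10.5% and 8.30% of all genes were, with a median of 0.78. HSPA8, the constitutive cytosolic HSP70, had 18326 and 7746 CPM in the IPs of replicates 1 and 2 and 4590 and 2578 CPM in their Inputs, at 1.86 ± 0.52 (SE, edgeR adjusted p = 0.0422). HSPH1, an HSP110 that exchanges the nucleotide of HSP70, was at 1.78 ± 0.49 (SE, edgeR adjusted p = 0.0425). HSF1, the factor that induces HSP90AA1 under stress, was at -0.00 ± 0.22 (SE, edgeR adjusted p = 0.996). With the replicate block 6 were enriched, where 13.4% of all genes were, with 8 without Input replicate 1 or without IP replicate 2 and 1 without IP replicate 1. DESeq2 and limma voom also gave 0 depleted, and 0 were lower at an unadjusted edgeR p under 0.05. Chaperone genes such as HSPA8, HSPD1 and HSPE1 have processed pseudogenes, and HSPA1B a near-identical neighbour, HSPA1A, so their counts are uncertain where reads could be shared.

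**Figure D5:**
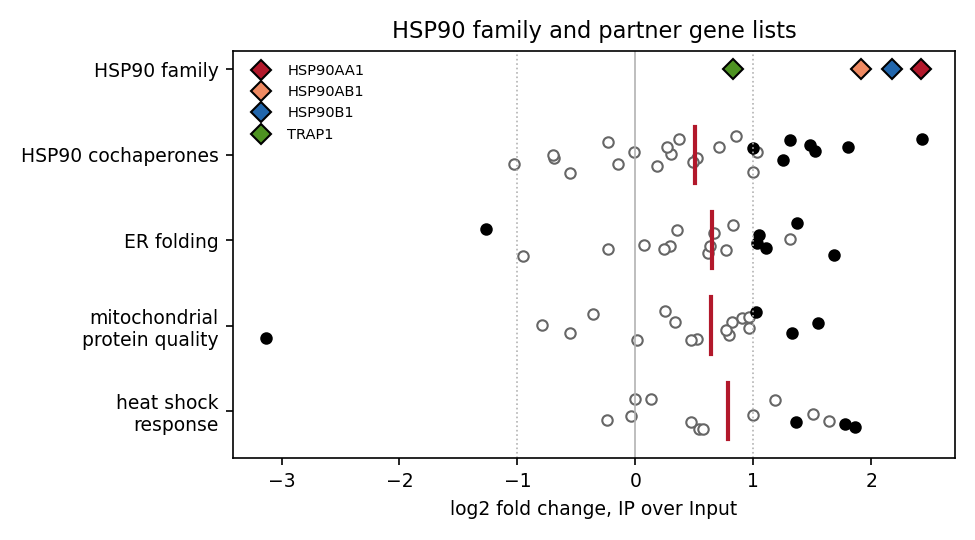
Log2 fold change of IP over Input in edgeR for the 4 members (diamonds) and for the genes of 4 lists of partners (circles, filled where called, open where not), with the median of each list as a vertical bar and dotted lines at 1 and -1. The list medians lie between 0.51 and 0.78, below TRAP1 (0.83) and the 3 enriched members, and HSPE1 (-3.13) is the lowest gene.

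By the pattern over the 4 libraries, the genes nearest to HSP90AA1 among 10220 protein-coding genes with a mean of at least 5 CPM included PIBF1 and KIF18A, at Euclidean distances of 0.173 and 0.202 between centred log2 levels. Those nearest to HSP90AB1 were TPP2, PINX1 and RBM19 (0.0689 to 0.101), those nearest to HSP90B1 were MFAP1, FRG1 and SPEF2 (0.0342 to 0.125), and those nearest to TRAP1 were NDUFS1, KAT7 and USP14 (0.0054 to 0.0286). Between members the closest were HSP90AA1 and HSP90B1 at 0.444, and the farthest HSP90AA1 and TRAP1 at 1.91. No member was among the 3 nearest genes of another. HSP90B1 ranked 19 among the genes nearest to HSP90AA1, and HSP90AA1 ranked 75 among those nearest to HSP90B1. Ranks between HSP90AB1 and these members were 103 to 1163, and ranks between TRAP1 and the others 1788 to 9282.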

How the data were processed

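For each of the 4 libraries the authors deposited whole-number counts per gene, not normalized. Per the study's methods, reads were trimmed (Trimmomatic), aligned to hg19 (STAR), cleared of GL contigs and counted per Ensembl gene (featureCounts). The annotation release, the strand setting and the handling of multimapping reads are not given in the sources used here. Symbols, lengths, transcripts and coordinates came from GENCODE v44 (GRCh38), joined by gene identifier, which 380 of the 14645 genes tested lacked.

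IP was compared with Input in edgeR 4.0.16 (R 4.3.3; quasi-likelihood, robust, TMM, filterByExpr, group as only term), called where the Benjamini-Hochberg adjusted p was below 0.05 and the absolute log2 difference above 1. SE came from the fold change and F. The test was run on simulated counts with few changed genes, in both directions. That setting does not show how the test behaves where many genes are called, as here. Ratios per replicate used TMM-scaled CPM plus 0.5. Biopython 1.88 aligned coding sequences. IP and Input of a number come from the same RIP replicate per the labels, and their deviations from group means correlated across genes (Pearson r = 0.637), so the number was taken as pairing the libraries.

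The members and gene lists were chosen with earlier results of these data known. Named were the members, pseudogenes with at least 10 counts, 7 key partners (STIP1, CDC37, PTGES3, AHSA1, HSPA5, HSPD1, HSF1), up to 3 enriched and 3 depleted genes per list with the largest fold change, the 3 nearest patterns per member and overlapping genes. Values of some genes that this rule names are not reported here. Alternatives were 3 other scalings (RLE, library size only, upper quartile), other filters on low counts, DESeq2 1.42.0, limma 3.58.1 (voom), a block for the replicate number, near copies summed with their parents, and each library left out. Reads carry no molecular identifiers.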

Additional observations from a re-analysis of the deposited data

How the results depend on the processing

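HSP90AA1, HSP90AB1 and HSP90B1 were called enriched and none of the 4 members was depleted under all 13 alternatives of the fit. Leaving out a library gave log2 fold changes of 1.79 to 3.19, 1.61 to 2.17, 1.70 to 2.66 and, for TRAP1, 0.65 to 1.08, with TRAP1 called at 1.08 without IP replicate 2, so 3 to 4 members were enriched. Scaling by library size only moved the median log2 fold change of all genes from 0.01 to -0.59, and the members to 1.83, 1.30, 1.59 and 0.22. It called 380 genes enriched and 3257 depleted (10.4% of calls enriched, against 55.9%), and upper-quartile scaling 41.2%. The replicate block called 1960 and 1957 genes. It changed the call of no member. Leaving out a library gave 1291 to 1936 enriched and 846 to 1801 depleted genes.

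With library size only the enriched and depleted counts were 1 and 4 for cochaperones, 1 and 2 for the endoplasmic reticulum list, 0 and 3 for the mitochondrial list, and 0 enriched for the heat shock list. Upper-quartile scaling gave 3 and 2 and RLE 2 enriched in the endoplasmic reticulum list, and RLE 1 in the heat shock list. With no count filter, 1 cochaperone was depleted, 3 endoplasmic reticulum and 5 heat shock genes were enriched, and DESeq2 enriched 7 and the block 6 heat shock genes. Leaving out a library gave 3 to 11 enriched and 0 to 2 depleted cochaperones, 2 to 7 and 0 to 2 endoplasmic reticulum genes, 1 to 8 and 1 to 2 mitochondrial genes, 1 to 8 enriched heat shock genes and 2 to 3 enriched pseudogenes. The cause was not tested.

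The difference of HSP90AB1 and HSP90B1 in log2 ratio, -0.33 as a mean, ranged from -0.69 to 0.02 with 1 replicate left out and so changed sign. Those of the other pairs ranged from 0.13 to 1.15 (HSP90AA1 minus HSP90AB1), 0.15 to 0.46 (minus HSP90B1) and 1.10 to 2.34 (minus TRAP1), 0.97 to 1.20 (HSP90AB1 minus TRAP1) and 0.95 to 1.89 (HSP90B1 minus TRAP1). Canonical transcript length gave mean levels per kilobase of 6186 in IP and 1153 in Input for HSP90AA1, 1995 in Input for HSP90AB1, 1693 and 372 for HSP90B1 and 109 and 61.6 for TRAP1. Library size only gave 3160 for HSP90AA1 and 291 for HSP90B1 in IP, and 2102 for HSP90AB1 and 32.6 for TRAP1 in Input.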
